A study of Mus musculus with 16 samples.

Results

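The posterior Hox genes Hoxa10, Hoxa11, Hoxa13, Hoxb9, Hoxb13, Hoxd10, Hoxd11, Hoxd12 and Hoxd13 were followed in 16 RNA sequencing libraries of mouse colonic epithelial cells. They are 9 of the 56268 genes measured, 9 of the 16 posterior Hox genes of paralog groups 9 to 13, and 9 of all 39 mouse Hox genes. The set was chosen from measured values of these data, by gene name, as genes that mark position along the colon. Which values were used is not recorded, but the low Hoxd13 level in knockout cells after colitis was known when the genes were chosen. Comparisons that contain the libraries of that group are therefore given below as a description: values and differences with no p-value, and calls only as counts beside the share of all genes called, from which nothing is read. The comparisons without that group are tested.

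Hox genes encode homeodomain transcription factors that tell cells of the embryo where they lie between head and tail. In mammals they sit in clusters named HoxA, HoxB, HoxC and HoxD, and genes of the same number in different clusters (paralogs) descend from a common ancestor. The order of genes along a cluster matches the order of their expression along the body, and the paralogs with the highest numbers mark the hindgut, from which the distal colon and rectum form. Hoxa13 and Hoxd13 are needed for the terminal hindgut and anal region, and adult colonic epithelium keeps a posterior Hox pattern.

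On mm10 the HoxD genes lie on the plus strand of chromosome 2 in the order Hoxd13 (74668310 to 74671599), Hoxd12 (74675013 to 74677705), Hoxd11 (74679557 to 74687016) and Hoxd10 (74691924 to 74695105). Hoxa10 (52231197 to 52240854), Hoxa11 (52242106 to 52245810) and Hoxa13 (52257694 to 52260880) lie on the minus strand of chromosome 6. Hoxb13 (96194316 to 96197447) and Hoxb9 (96271457 to 96276595) lie on the plus strand of chromosome 11.

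All mice carried Villin-Cre, a transgene whose Villin promoter drives Cre recombinase in intestinal epithelium. Control libraries (WT in the labels) had Villin-Cre alone, and knockout libraries (cKO) had Villin-Cre with floxed Rictor, the gene of the defining subunit of mTOR complex 2. Each genotype was kept on normal drinking water or given dextran sulfate sodium at 3% (DSS, a chemical that damages the lining of the colon and so causes colitis). The groups are named control, cKO, control_DSS and cKO_DSS, with 4 libraries each, numbered 1 to 4. The labels give neither the age of the mice nor whether each library came from a separate animal, so the p-values rest on the spread of these samples alone, which may be technical.

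Reads recovered from the deposited values numbered 13911823 to 16414914 per library. The 10 epithelial markers (Epcam, Cdh1, Vil1 and others) summed to 9795 to 14549 FPKM (fragments per kilobase of gene, scaled to the library's size), whereas 6 smooth muscle markers summed to 0.744 to 1.67 FPKM and 6 endothelial markers to 0.549 to 1.35 FPKM. Rictor itself was at 2.17 to 3.14 FPKM in control, 2.22 to 2.75 in cKO, 2.82 to 4.16 in control_DSS and 1.92 to 2.96 in cKO_DSS. These values overlapped between the genotypes. Rictor RNA from which the floxed exons are missing is still counted in a value for the whole gene, so the level is an incomplete check of the genotype labels. On the second principal component of all kept genes, cKO_DSS 3 and 4 lay at -33.9 and -32.2, apart from the other 14 libraries, which lay between -17.1 and 21.2. All 8 water libraries had 10022 to 25600 reads of Xist, an RNA of female cells, and 7 of the 8 DSS libraries had 0 to 7 (control_DSS 2 had 5275). All DSS libraries had 2681 to 4533 reads of 4 Y-linked genes, against 0 to 1856 in the water libraries. A comparison of DSS with water therefore cannot be told apart from this difference in sex-linked RNA. Control 1, 2 and 4, cKO 1 and 2 and control_DSS 2 each had at least 635 Y-linked and at least 5275 Xist reads. Whether these libraries mix RNA of both sexes was not tested. On water, Xist reads were 10022 to 17416 in control and 12235 to 25600 in cKO.

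The starts of 7 of the 9 genes were found in RefSeq (GRCm38.p6), and the 250 bases before the start are printed for the 4 neighbouring HoxD genes, because these 4 were the genes that were low together in cKO_DSS. Capitals mark matches to TATAAA (the TATA box) or to ATAAA, a short core found in binding sites of posterior HOX and CDX factors, on either strand. The 2 motifs overlap wherever TATAAA occurs.
Hoxd13, chr2:74667975-74668224, plus strand: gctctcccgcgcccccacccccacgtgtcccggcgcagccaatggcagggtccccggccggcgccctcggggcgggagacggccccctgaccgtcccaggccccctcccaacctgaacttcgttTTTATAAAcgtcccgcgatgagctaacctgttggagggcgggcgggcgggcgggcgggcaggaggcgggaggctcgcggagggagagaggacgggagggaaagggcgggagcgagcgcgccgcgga
Hoxd12, chr2:74674763-74675012, plus strand: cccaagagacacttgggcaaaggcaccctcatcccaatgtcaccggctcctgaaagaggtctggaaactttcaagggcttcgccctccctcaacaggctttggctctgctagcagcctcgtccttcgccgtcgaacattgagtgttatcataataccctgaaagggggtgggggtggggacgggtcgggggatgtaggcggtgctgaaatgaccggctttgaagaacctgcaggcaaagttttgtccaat
Hoxd11, chr2:74679308-74679557, plus strand: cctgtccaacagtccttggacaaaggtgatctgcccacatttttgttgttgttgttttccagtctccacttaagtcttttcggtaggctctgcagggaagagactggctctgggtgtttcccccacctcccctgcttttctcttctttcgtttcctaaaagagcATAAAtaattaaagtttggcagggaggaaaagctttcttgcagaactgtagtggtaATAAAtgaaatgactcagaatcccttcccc
Hoxd10, chr2:74691641-74691890, plus strand: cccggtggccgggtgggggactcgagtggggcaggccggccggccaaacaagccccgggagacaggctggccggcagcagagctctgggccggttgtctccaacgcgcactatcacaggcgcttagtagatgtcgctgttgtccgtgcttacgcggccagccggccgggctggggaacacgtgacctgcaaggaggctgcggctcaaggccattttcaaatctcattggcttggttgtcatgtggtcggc
The 4 sequences differed widely in base composition. Hoxd13 had 74.4% G and C with 31 CpG dinucleotides, Hoxd10 had 65.6% with 20, Hoxd12 had 55.6% with 10 and Hoxd11 had 44.8% with 2, where the medians over 32851 RefSeq promoters of the same length were 52.4% and 6. Hoxd13 held TATAAA on both strands in overlapping positions, and 12.4% of all promoters held this motif on either strand. Hoxd11 held ATAAA at 2 positions, and 37.3% of all promoters held it. None of the 7 promoters held the longer forms CAATAAA or TCGTAAA or the FOXO-type letters GTAAACA, which 4.20, 0.478 and 3.17% of all promoters held. No match says only that these letters are not in this window.

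In control epithelium on water the 9 genes fell into a high group and a low group. Hoxb13 was the highest at 94.2 ± 11.5 FPKM (mean ± SD, n = 4), above all values of the next gene, Hoxb9, at 31.0 ± 2.95 FPKM. Hoxa13 followed at 27.1 ± 1.88 FPKM, Hoxd13 at 21.5 ± 4.23 FPKM and Hoxa10 at 15.3 ± 2.53 FPKM. From Hoxb9 down to Hoxa10, each gene's values overlapped those of the next. The low group was separated from Hoxa10 and held Hoxd10 at 1.86 ± 0.90 FPKM, Hoxd11 at 1.04 ± 0.23, Hoxa11 at 0.87 ± 0.33 and Hoxd12 at 0.79 ± 0.29, again with overlapping neighbours. These are levels per gene length, which allows only a rough comparison between genes, because base composition and overlapping transcripts were not corrected for.

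The same order held in cKO on water except that Hoxd12 and Hoxa11, whose values overlapped, changed places. In control_DSS, Hoxd13 stood second at 28.6 ± 2.92 FPKM, overlapping Hoxa13 below it, and Hoxb9 ranked below both. In cKO_DSS, Hoxd13 ranked below Hoxa10 at 9.30 ± 3.11 FPKM, with all 4 of its values below the lowest value of Hoxa10.

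The low genes rest on few reads. Hoxd12 had 5 to 57 reads per library, Hoxa11 15 to 47, Hoxd10 21 to 84 and Hoxd11 15 to 91, while Hoxb13 had 1491 to 4094. A filter of at least 1 FPKM in at least 4 libraries kept 13255 genes and 8 of the 9. Hoxd12 reached 1 FPKM in 3 libraries and was left out of the fit, and Hoxa11 passed with 5 libraries. Hoxa11 overlaps the antisense transcript Hoxa11os by 1418 bases. Hoxa11os had 11529 reads over all libraries against 441 for Hoxa11, and strand-specific counting is not stated, so the Hoxa11 values are uncertain.

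**Figure D1:**
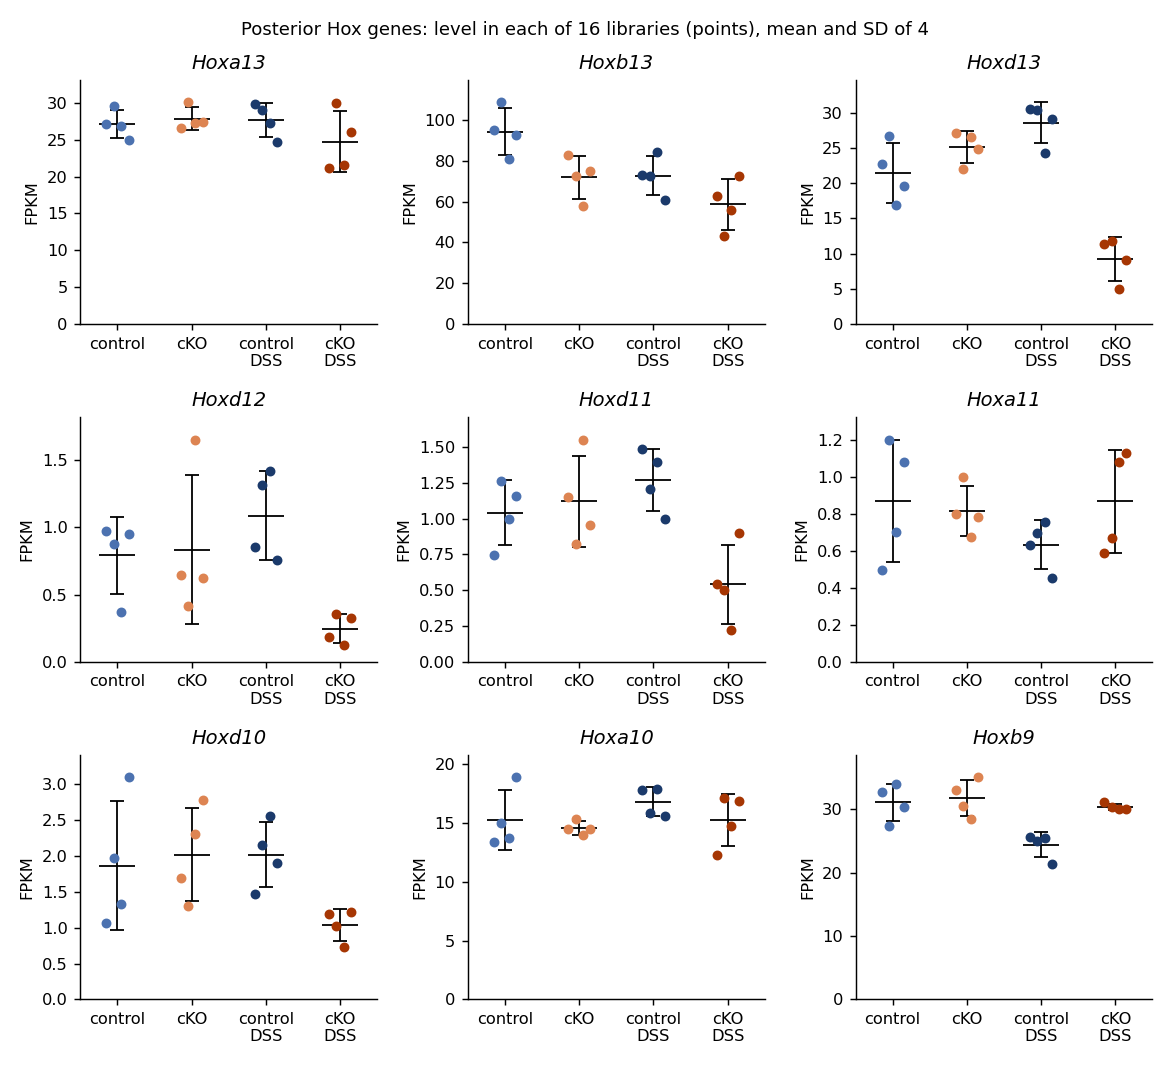
Level of each posterior Hox gene in FPKM (vertical axes, each from 0) in the 4 groups of 4 libraries; points are libraries, in replicate order, and the bar and whiskers are the mean and SD. The 4 cKO_DSS libraries lie at 5.01 to 11.8 FPKM for Hoxd13, below the 16.8 to 30.6 FPKM of all other libraries, while those of Hoxa13 overlap the other groups.

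Group differences below are differences of mean log2(FPKM + 1); for low genes the added 1 makes them smaller than the true change. A gene is called at an adjusted p under 0.05 from limma, with Benjamini-Hochberg adjustment over all 13255 kept genes. Between the genotypes on water, 0.0905% of all kept genes were called, 12 in number. Of the 8 kept posterior Hox genes 0 were called by limma, and 0 were called under each of the alternatives tried, limma voom included. Their median difference was +0.03, beside +0.01 for all kept genes.

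Among the paralogs of group 13, Hoxb13, a homeodomain factor expressed in distal colon and rectum, had 94.8, 109, 80.7 and 92.5 FPKM in control 1 to 4 and 82.8, 72.4, 57.7 and 75.0 FPKM in cKO 1 to 4. The 2 groups overlapped through control 3 and cKO 1. The difference was -0.39 ± 0.15 SE (adjusted p = 0.220 by limma), so it did not pass the test. Hoxd13 had 22.7, 26.7, 16.8 and 19.6 FPKM in control and 27.1, 22.0, 26.6 and 24.9 FPKM in cKO, which overlapped (+0.23 ± 0.20 SE, limma adjusted p = 0.525). Hoxa13, a regulator of hindgut and limb formation, spanned 25.0 to 29.6 FPKM in control and 26.6 to 30.1 in cKO, and its difference was +0.04. The other 5 kept genes differed by -0.05 to +0.10.

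DSS in control epithelium was also tested. This comparison shares the control_DSS libraries with the comparison in which low Hoxd13 was known. Between DSS and water in control epithelium, 28.5% of all kept genes were called, as was 1 of the 8 kept posterior Hox genes, Hoxb9. Hoxb9, a trunk and hindgut paralog, fell from 32.7, 27.3, 33.9 and 30.3 FPKM in control 1 to 4 to 25.6, 25.0, 25.5 and 21.4 FPKM in control_DSS 1 to 4. All 4 DSS values lay below all 4 water values, and the DSS mean was 78.5% of the water mean (-0.34 ± 0.09 SE, limma adjusted p = 0.0125). With the Y-linked level as a covariate the call was lost (-0.27, limma adjusted p = 0.132), as it was after a correction for GC content (-0.22, limma adjusted p = 0.0723).

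In the same comparison Hoxb13 was at 72.8, 72.6, 84.4 and 60.8 FPKM in control_DSS, overlapping control at its lowest value (-0.37 ± 0.15 SE, limma adjusted p = 0.0819). Hoxd13 was at 30.6, 30.4, 24.3 and 29.1 FPKM in control_DSS, with only control_DSS 3 inside the control range (+0.41 ± 0.20 SE, limma adjusted p = 0.128). The other 5 kept genes had adjusted p-values of 0.362 to 0.871 by limma. The median difference of the 8 was +0.07, beside -0.01 for all kept genes.

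After DSS, the largest differences between genotypes among the 9 genes were those of the HoxD genes. Hoxd13 was at 11.3, 11.8, 5.01 and 9.05 FPKM in cKO_DSS 1 to 4, where control_DSS had 24.3 to 30.6 FPKM. All 4 cKO_DSS values were below those of the other 12 libraries, and the cKO_DSS mean was 32.5% of the control_DSS mean. The difference was -1.58 ± 0.20 SE against control_DSS, and -1.40 ± 0.20 SE against cKO on water, whose mean it reached to 37.0%. cKO_DSS 3, which stood apart on the second principal component, was the lowest. Without cKO_DSS 3 and 4 the difference from control_DSS was -1.23, and that from cKO on water was -1.05. In bulk samples, fewer cells of a type and less RNA per cell cannot be told apart.

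The next genes of the cluster were low in the same libraries. Hoxd12 had 0.85, 1.32, 1.42 and 0.76 FPKM in control_DSS and 0.19, 0.35, 0.13 and 0.32 FPKM in cKO_DSS, on 28 to 52 and 5 to 14 reads. Hoxd11, which with its paralog Hoxa11 patterns limb and kidney, had 1.49, 1.21, 1.40 and 0.997 FPKM in control_DSS and 0.54, 0.50, 0.23 and 0.90 FPKM in cKO_DSS. Hoxd10 had 1.47, 2.15, 2.55 and 1.90 FPKM in control_DSS and 1.19, 1.02, 0.73 and 1.22 FPKM in cKO_DSS. For each of the 3 genes, every cKO_DSS value lay below every control_DSS value, and cKO_DSS 3 was the lowest of all 16 libraries. On water, Hoxd12 spanned 0.370 to 0.977 FPKM in control and 0.414 to 1.65 in cKO, Hoxd11 0.746 to 1.27 and 0.825 to 1.55, and Hoxd10 1.07 to 3.10 and 1.30 to 2.77. Against the water libraries the values of Hoxd12 were also separate, while Hoxd11 in cKO_DSS 4 lay inside the range of both water groups and 2 of the Hoxd10 values lay inside that of control. The cKO_DSS mean was 22.7% of the control_DSS mean for Hoxd12, 42.7% for Hoxd11 and 51.6% for Hoxd10. The differences were -0.57 ± 0.15 SE for Hoxd11 and -0.56 ± 0.20 SE for Hoxd10, and -0.73 between the unfitted means for Hoxd12.

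Of the 8 kept genes, 2 were called in this comparison, Hoxd13 and Hoxd11, where 3.7% of all kept genes were called and 1.67% were called lower in cKO_DSS. Groups did not overlap, with cKO_DSS lower, for 3 of the 8 (Hoxd13, Hoxd11 and Hoxd10) and for 4.88% of all kept genes. Since the genes were chosen with this contrast known, nothing is read from these counts. The call of Hoxd11 was lost under 22 of the 28 alternatives that could be fitted. The median of the 8 genes was -0.24, beside -0.01 for all kept genes.

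The posterior genes of the HoxA and HoxB clusters were not low together. Hoxa13 had 29.9, 28.9, 27.3 and 24.6 FPKM in control_DSS and 21.2, 29.9, 21.6 and 26.0 FPKM in cKO_DSS, which overlapped (-0.17 ± 0.10 SE). Hoxb13 spanned 60.8 to 84.4 FPKM in control_DSS and 43.2 to 72.6 in cKO_DSS, with overlap (-0.32 ± 0.15 SE). Hoxa10, a paralog known for its part in the uterus and spine, spanned 15.6 to 17.9 and 12.3 to 17.1 FPKM and differed by -0.14. Hoxa11 differed by +0.18. Hoxb9 was higher in cKO_DSS, at 31.1, 30.3, 30.0 and 30.0 FPKM, than in any control_DSS library (+0.31 ± 0.09 SE), and its cKO_DSS values lay within the range of both water groups.

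**Figure D2:**
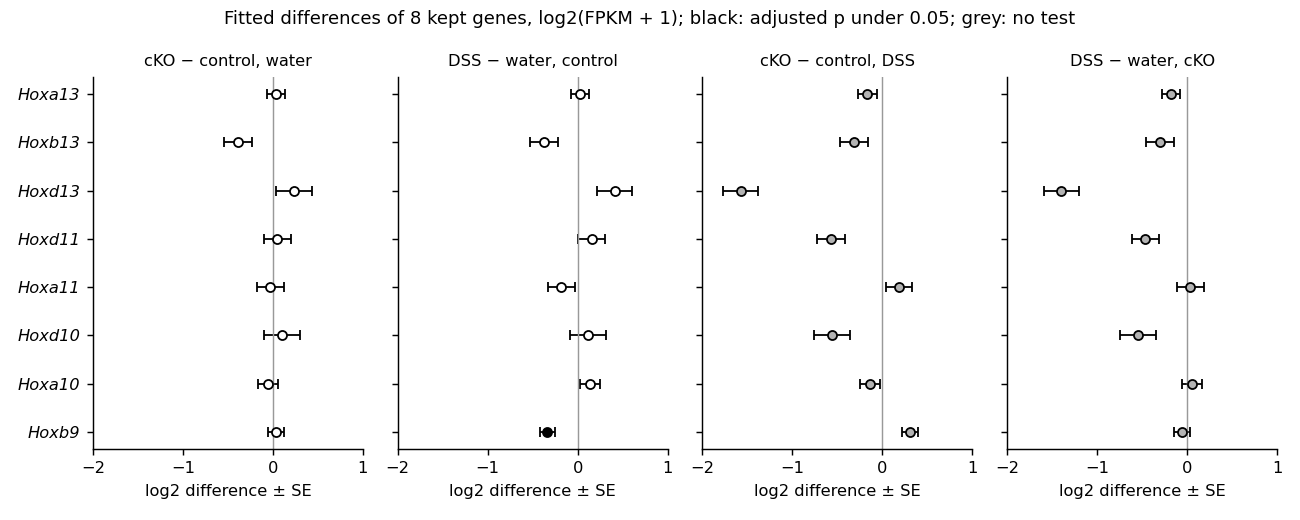
Fitted difference of each of the 8 kept genes on the log2(FPKM + 1) scale (horizontal axes), with its standard error, in 4 comparisons; in the 2 tested comparisons (left) a filled point has an adjusted p under 0.05, and grey points (right) are descriptions with no test. Hoxd13 lies at -1.58 between genotypes after DSS and at -1.40 between DSS and water in cKO, and every other difference lies between -0.57 and +0.41.

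DSS in cKO epithelium and the interaction (the DSS difference in cKO minus that in control) also contain the cKO_DSS libraries and are described in the same way. For DSS in cKO, 14.7% of all kept genes were called and 1 of the 8 (Hoxd13), from which nothing is read. Beside Hoxd13 at -1.40, Hoxd10 differed by -0.55, Hoxd11 by -0.47, Hoxb13 by -0.30 and Hoxa13 by -0.18, and Hoxa10, Hoxa11 and Hoxb9 by -0.06 to +0.05. The interaction was -1.81 ± 0.28 SE for Hoxd13, -0.66 ± 0.29 SE for Hoxd10, -0.62 ± 0.21 SE for Hoxd11 and +0.28 ± 0.12 SE for Hoxb9. It was called for 0.151% of all kept genes and for 1 of the 8 (Hoxd13), and nothing is read from that call either. The call was lost without cKO_DSS 3 and 4, without control 4 and control_DSS 2, under no filter, and on leaving out any 1 of cKO 1 to 4, control_DSS 1, 2 and 4 and cKO_DSS 4; over all alternatives the value was -2.02 to -1.46. The comparisons share groups, so their values stand side by side and do not support each other.

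The Hoxd13 level relative to its paralog Hoxa13 was 0.627 to 0.903 in control, 0.732 to 1.02 in cKO, 0.891 to 1.18 in control_DSS and 0.232 to 0.534 in cKO_DSS. The last range did not overlap the others. Hoxd13 made up 13.5 to 16.2% of the summed FPKM of Hoxa13, Hoxb13 and Hoxd13 in control, 17.7 to 23.8% in cKO, 17.9 to 25.4% in control_DSS and 6.06 to 13.9% in cKO_DSS. The highest cKO_DSS share lay inside the control range. The cKO and control_DSS shares both lay above all control shares; Hoxb13, which counts in the sum, was lower on average in both groups than in control.

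**Figure D3:**
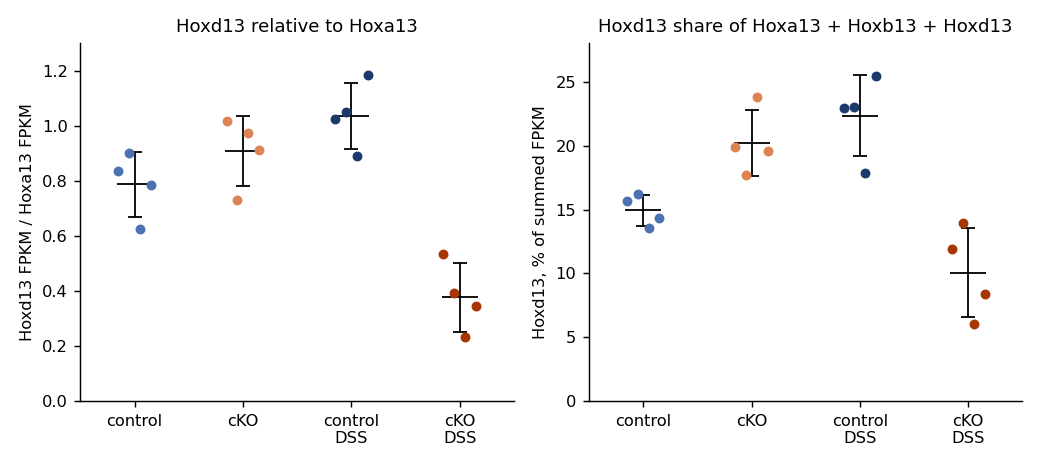
Hoxd13 FPKM divided by Hoxa13 FPKM (left) and Hoxd13 as a percentage of the summed FPKM of Hoxa13, Hoxb13 and Hoxd13 (right) in each library; bar and whiskers are the mean and SD of 4. The cKO_DSS ratios of 0.232 to 0.534 lie below the 0.627 to 1.18 of the other libraries.

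Across the HoxD cluster the differences after DSS changed sign with gene order. Evx2, a homeodomain gene that is not a Hox gene, lies before Hoxd13 on the minus strand (74652991 to 74659557). It had 1.10, 0.631, 0.809 and 0.706 FPKM in control_DSS and 0.451, 0.153, 0.136 and 0.331 FPKM in cKO_DSS, on 38 to 64 and 9 to 28 reads. All its cKO_DSS values were below those of the other 12 libraries, and the mean was 33.0% of the control_DSS mean. Evx2 was below the filter and was not fitted. On the other side of Hoxd10, Hoxd9 had 0.0891 to 0.658 FPKM over all libraries with overlapping groups. Hoxd8, still further along, was at 1.67, 1.49, 1.92 and 2.07 FPKM in cKO_DSS, above all other libraries (+0.40 ± 0.16 SE against control_DSS), and was not called. The Hoxd8 mean in cKO was 154% of that in control on water, and in cKO_DSS 159% of that in control_DSS. Its interaction was +0.12 ± 0.23 SE, too wide a spread to tell whether the genotype difference of Hoxd8 depended on DSS. On water Hoxd8 was not called either. Of the genes that flank the cluster, Mtx2, a mitochondrial outer membrane protein gene, averaged 16.4 FPKM in control_DSS and 13.3 in cKO_DSS, and Lnpk, an endoplasmic reticulum shaping protein gene, averaged 2.83 and 2.13. Neither was called between genotypes after DSS.

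**Figure D4:**
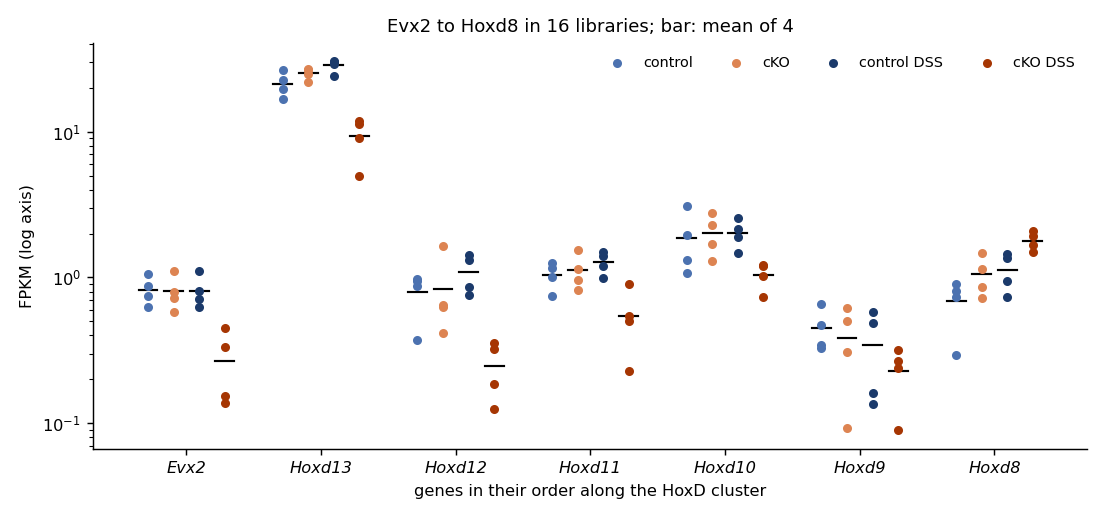
FPKM on a log axis for Evx2 and the HoxD genes from Hoxd13 to Hoxd8, in their order along the chromosome, in 16 libraries; horizontal bars are means of 4. The cKO_DSS libraries are lowest for Evx2, Hoxd13 and Hoxd12 and highest for Hoxd8, at 1.49 to 2.07 FPKM.

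The other posterior Hox genes were few in number in these cells. Hoxa9 passed the filter, at 9.46 ± 2.40 FPKM in control and 7.40 ± 0.67 in control_DSS, and was called in 0 of the 5 comparisons. Hoxc10, Hoxc11, Hoxc12 and Hoxc13 had 0 reads in each of the 16 libraries and Hoxc9 had 5 reads in all. The whole HoxC cluster gave 47 reads over 9 genes, where HoxA gave 61239, HoxB 76841 and HoxD 16122.

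Of 23 anterior and central Hox genes (paralog groups 1 to 8), 13 passed the filter. None was called between genotypes on water, where 0.0905% of all kept genes were. In control epithelium 3 of the 13 were called lower after DSS, where 13.5% of all kept genes were, and 11 had a negative difference (median -0.49, beside -0.01 for all kept genes). Hoxb6 fell by 0.96 ± 0.20 SE (limma adjusted p = 0.00420), Hoxb5 by 0.76 ± 0.16 SE (limma adjusted p = 0.00449) and Hoxb4 by 0.76 ± 0.21 SE (limma adjusted p = 0.0161). Each of these calls was lost with the Y-linked level as a covariate. Between genotypes after DSS, all 13 differences were positive (median +0.40), opposite in sign to Hoxd13. Hoxb5 (+0.81 ± 0.16 SE) and Hoxb6 (+0.89 ± 0.20 SE) were called, 2 of 13 where 2.03% of all kept genes were called higher in cKO_DSS; this contains the cKO_DSS libraries and is a description. Both calls were lost without cKO_DSS 3 and 4. Hoxb6 was at 12.3, 11.5, 11.9 and 8.55 FPKM in control_DSS and 15.8, 17.0, 27.5 and 27.4 FPKM in cKO_DSS, with the highest values in cKO_DSS 3 and 4.

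**Figure D5:**
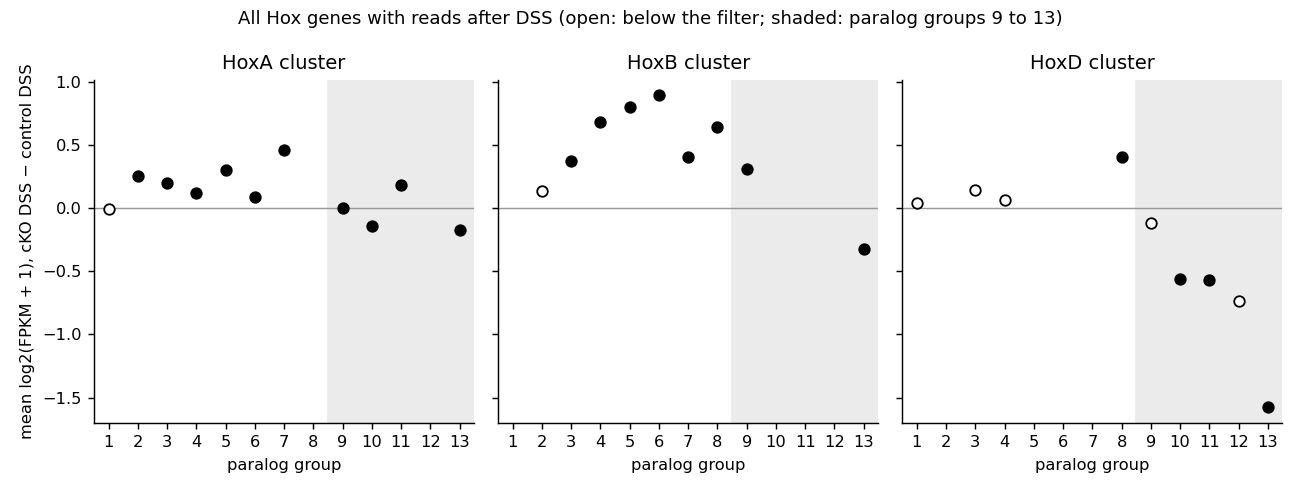
Difference of the mean log2(FPKM + 1), cKO_DSS minus control_DSS (vertical axis), of every HoxA, HoxB and HoxD gene with reads after DSS, by paralog group (horizontal axis); open points were below the filter and groups 9 to 13 are shaded. HoxD is highest at Hoxd8 (+0.40) and lowest at Hoxd13 (-1.58), and HoxB is highest at Hoxb6 (+0.89) and lowest at Hoxb13 (-0.32). Genes of lower number lie below these highest points, such as Hoxd4 at +0.07 and Hoxb2 at +0.13, and Hoxb7 (+0.41) lies below Hoxb8 (+0.64). The HoxA points lie between -0.17 and +0.46.

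Genes known to act with or upstream of Hox genes were counted from lists chosen with earlier results of these data known, so calls after DSS in these lists are descriptions too. Between genotypes, 0.0905% of all kept genes were called on water and 3.7% after DSS, so 0 calls in a list this short say little. TALE homeodomain proteins bind DNA together with HOX proteins. Of 6 kept TALE genes, 0 were called between the genotypes on water or after DSS, and the smallest p-values after DSS belonged to Pbx2 (+0.25), Tgif1 (+0.20) and Pbx3 (-0.22). On water, Meis3 differed by -0.44 and Tgif1 by +0.16. Of 13 kept intestinal identity factors, 0 were called in either genotype comparison. Cdx2, which specifies intestinal epithelium and regulates Hox genes, spanned 67.8 to 103 FPKM in control_DSS and 94.7 to 152 in cKO_DSS, which overlapped (+0.53 ± 0.16 SE, not called). Isx, an intestinal homeodomain factor, differed by +0.40 after DSS and by -0.39 on water.

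Polycomb complexes silence Hox genes and MLL and UTX complexes oppose them. Of 20 kept Polycomb genes and 10 kept MLL and UTX genes, 0 were called in either genotype comparison. Over all kept genes 0.0905% were called on water and 3.7% after DSS, so 0 calls here say little. After DSS, Pcgf2 (+0.54) and Cbx7 (+0.21) were among the Polycomb genes with the smallest p-values, and the histone demethylase gene Kdm6b (+0.52), Kmt2d (+0.32) and Ash2l (-0.14) had the smallest of the others. On water the smallest p-values belonged to Phc2 (-0.39), Ezh2 (+0.27) and Phc3 (+0.29), and to Kdm6a (+0.46), Dpy30 (+0.36) and Kmt2a (+0.25).

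Retinoic acid induces Hox genes in the embryo, anterior genes first. Of 9 kept genes of retinoic acid handling, 0 were called on water and 2 were called higher in cKO_DSS than in control_DSS, with 0 lower, where 2.03% of all kept genes were called higher (median of the 9 +0.39, beside -0.01 for all kept genes). Aldh1a3, an enzyme that makes retinoic acid, averaged 1.17 ± 0.80 FPKM in control_DSS and 4.88 ± 1.93 in cKO_DSS (+1.46 ± 0.23 SE), and Rdh10, which makes its precursor, differed by +0.42 ± 0.11 SE. Aldh1a3 reached at most 0.571 FPKM in control and 0.866 in cKO, and its lowest control_DSS value was 0.480. It therefore passed the filter only through cKO_DSS, the group where it was high, and nothing is read from its call. The call of Rdh10 was lost under 20 of 29 alternatives. The receptor gene Rarg differed by +0.56 after DSS and by -0.41 on water, neither called. On water the other small p-values were those of Dhrs3 (-0.39) and Rxra (-0.28).

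Markers of colon regions and of other cell types were read in the same libraries. Of 6 kept distal colon markers, 1 was called between genotypes after DSS, where 3.7% of all kept genes were: Slc37a2, a sugar phosphate transporter gene, at 69.6 ± 10.2 FPKM in control_DSS and 26.8 ± 5.60 in cKO_DSS (-1.35 ± 0.25 SE). The hormone gene Insl5 differed by -0.47 and the sodium channel subunit Scnn1b by +0.36, neither called, and on water Insl5, Pyy and Gcg differed by -0.59, -0.53 and -0.23. The 7 measured distal markers summed to 225 to 252 FPKM in control_DSS and 172 to 207 in cKO_DSS (111 to 226 on water). Slc37a2 had the largest difference in that sum. On water Slc37a2 averaged 23.5 ± 10.3 FPKM in control and 17.9 ± 4.04 in cKO, so its cKO_DSS mean was not below the water means. Insl5 averaged 41.0 and 29.5 FPKM in the 2 DSS groups and Atp12a 53.0 and 47.2, while the hormone genes Pyy (53.0 and 60.1) and Gcg (19.2 and 24.2) were higher on average in cKO_DSS. Of 7 kept proximal colon markers, 1 was called, beside the same 3.7%: the meprin gene Mep1b (-0.56 ± 0.10 SE after DSS), while Osr2 (+0.68) and Nts (+0.34) were not called. The calls of Slc37a2 and Mep1b were both lost without cKO_DSS 3 and 4, and that of Slc37a2 also without control_DSS 2. On water Fabp2, Aqp4 and Mep1b differed by +0.54, +0.31 and -0.17. The 8 proximal markers summed to 1449 to 2798 FPKM in control_DSS and 1571 to 2637 in cKO_DSS, which overlapped. Most of that sum was Ang4, at 1657 ± 551 FPKM in control_DSS and 1399 ± 432 in cKO_DSS, so it says little about the other markers. Slc9a3 was higher in cKO_DSS (95.5 to 122 FPKM) than in control_DSS (75.9 to 89.3), and was not called. Aqp4 (199 and 198) and Fabp2 (161 and 154) had similar means in control_DSS and cKO_DSS. The 10 squamous epithelium markers summed to 16.8 to 24.7 FPKM in control_DSS and 32.5 to 39.5 in cKO_DSS, and to 18.2 to 37.8 on water, with Krt5 and Ivl at 0 in all libraries and Trp63 at 0 in both groups. Nearly all of that sum was 1 gene, Sprr1a, a cornified envelope protein gene, at 19.1 FPKM on average in control_DSS and 34.7 in cKO_DSS. The other 9 averaged under 1 FPKM in every group. Of these, Krt13 spanned 0.190 to 0.340 FPKM in control_DSS and 0.346 to 1.37 in cKO_DSS. Dsg3 (0.17 against 0.10 FPKM), Krt4 (0.05 against 0) and Krt6a (0.03 against 0.01) were also higher on average in cKO_DSS than in control_DSS. Krt14 (0.66 against 0.89 FPKM) and Krtdap (0 against 0.03) were lower. The 11 fibroblast and matrix markers summed to 18.2 to 22.2 FPKM in control_DSS, 15.3 to 16.9 in cKO_DSS and 7.76 to 11.5 in the water libraries. The part of these differences in the low HoxD levels was not tested.

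The genes whose level followed Hoxd13 most closely were named by Pearson's r of log2(FPKM + 1) over the 16 libraries, which share the 4 groups and are not independent of the group differences. The highest among 11357 named genes were Rnf152 (0.93), a lysosomal ubiquitin ligase gene, Akr1c14 (0.91), a steroid dehydrogenase gene, Zbtb8os (0.90), Sh3bgr (0.89), Maob (0.89), which encodes monoamine oxidase B, and Hacd3 (0.88). All 6 had their lowest group mean in cKO_DSS, as for Rnf152 with 1.72 FPKM against 4.42 in control_DSS. The lowest were the keratin gene Krt18 (-0.92), the syntaxin gene Stx1a (-0.92) and the integrin gene Itga3 (-0.91). Hoxd11 had an r of 0.82 with Hoxd13 and ranked 31 among 13254 genes, Hoxd10 had 0.65, Hoxa13 0.60 and Hoxb13 0.44, and Hoxb9 had -0.34.

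With the group means taken off, the order changed. The highest were then Pde7a (0.95), Itih5 (0.90), Cav2 (0.89), Slc25a36 (0.88), Xpr1 (0.88) and Esco1 (0.88), and the lowest Myo18a (-0.89), Mybl2 (-0.89) and Impdh1 (-0.88). Hoxd11 then had 0.43, Hoxa13 0.41 and Hoxd10 0.18. Among Hoxd10, Hoxd11, Hoxd12 and Hoxd13 themselves, r was 0.65 to 0.82 over the libraries and 0.18 to 0.53 with group means taken off.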

How the data were processed

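RNA sequencing libraries were grouped by the labels. Per the labels' protocols, the authors cleaned the reads of adapters, N bases and low quality. The submitters' processing notes name featureCounts (1.5.0-p3), DESeq2 (1.20.0) and mm10; which aligner, annotation release and strand setting they used is not given in the sources used here. The authors deposited FPKM with gene lengths, from which whole reads were recovered for 100% of values above 0 (within 0.05).

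After log2(FPKM + 1), genes reaching 1 FPKM in 4 or more libraries were fitted with limma 3.58.1 in R 4.3.3 (a mean per group over 16 libraries, eBayes with a trend, two-sided, Benjamini-Hochberg over 13255 genes per comparison). The test was tested on simulated data. No library pair of a group agreed within counting noise.

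The 9 genes, the gene lists and the tests were chosen with earlier results of these data known. Named were the 9 genes, other called Hox genes, the 3 smallest p of each list named in the report in the genotype comparisons, and the 6 most and 3 least correlated with Hoxd13; some genes that this rule names are not reported here. Evx2, Hoxd8, Hoxd9, Mtx2 and Lnpk were named for their place in or beside HoxD, after their values were seen. Other marker lists (enteric neuron and glia, immune, ileum) summed to 1.01 to 3.69, 6.20 to 14.4 and 72.5 to 1202 FPKM. Reg3b was the largest part of the ileum sum. Of the other ileum markers, Defa24 reached 70.8 FPKM in cKO, Fabp6 57.4, Lyz1 16.2 and Apoa1 8.53. In control their highest values were 0.979, 6.71, 0.689 and 0.325 FPKM. Slc10a2 overlapped, at 5.54 to 13.6 FPKM in cKO and 3.82 to 18.3 in control. Whether RNA of small intestine is present in cKO was not tested. Prac1 was not analysed here. Intervals for reads would cover counting error only.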

Additional observations from a re-analysis of the deposited data

Results flagged for a closer look

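The level of Hoxb9 in control_DSS 4, 21.4 FPKM, lay apart from the other 3 control_DSS libraries, at 25.0 to 25.6 FPKM. The level of Hoxd12 in control 3, 0.370 FPKM, lay apart from the other 3 control libraries, at 0.878 to 0.977 FPKM. Each gap was above Dixon's 95% critical value for 4 samples. Chance gives about 1 such gap in 20 groups, and 36 sets of 4 values were examined.

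The DSS difference of Hoxd13 in cKO and in control differed by -1.81 on the log2 scale, by the interaction term. Hoxd13 was known to be low in cKO_DSS when the genes were chosen, so this is a description.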

How the results depend on the processing

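Between genotypes on water, 0 genes of the set were called under every setting run. Between genotypes after DSS, 2 were called, 1 with a 5 FPKM filter or none, with quantile normalization, a replicate block, a fit on the groups compared only, the Y-linked level as a covariate, a GC correction, or without cKO_DSS 3 and 4 or control 4 and control_DSS 2, and 4 with sample quality weights; without 1 replicate each, 1 to 2. For DSS in control, 1 was called, 0 with the Y-linked covariate or GC correction, 2 with quality weights or without cKO_DSS 3 and 4, and 1 to 2 without 1 replicate each. For DSS in cKO, 1 was called, 2 with a pseudocount of 0.1 or voom, and 1 to 2 without 1 replicate each. The interaction was called for 1 gene, 0 under no filter or on leaving out cKO_DSS 3 and 4, or control 4 and control_DSS 2, and 0 to 1 without 1 replicate each. The fit without control 4 and control_DSS 2 was chosen after seeing the data. Except where fewer samples or more genes were fitted, the cause was not tested. Same-numbered samples did not pair (correlations of deviations -0.20 to 0.30), and the replicate block moved no other count.

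Of all 13255 genes, the calls between genotypes after DSS went from 491 to 33 without cKO_DSS 3 and 4 and to 3485 with quality weights, and those for DSS in control from 3778 to 863 with the Y-linked covariate.

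Uncalled differences near 0 changed sign. Genotype on water: Hoxa10 was 0.0059 with quality weights, 0.030 with GC correction and 0.050 without control 4 and control_DSS 2 (-0.106 to 0.0501 without 1 replicate). Hoxa11 was 0.060 with GC correction and 0.028 without control 4 and control_DSS 2 (-0.131 to 0.0552 without 1 replicate). Hoxa13 was -0.0015 without control 4 and control_DSS 2 (-0.00147 to 0.0764 without 1 replicate), and Hoxd11 -0.095 with GC correction (-0.0440 to 0.118 without 1 replicate). Hoxb9 and Hoxd10 ranged from -0.0262 to 0.0830 and from -0.0394 to 0.289 without 1 replicate. DSS in control: Hoxa13 was -0.0011 with voom, -0.038 with the Y-linked covariate and -0.033 without control 4 and control_DSS 2 (-0.0113 to 0.0791 without 1 replicate). Hoxd11 was -0.077 with GC correction, and Hoxd10 ranged from -0.0274 to 0.301 without 1 replicate. At 5 to 91 reads per library, Hoxa11, Hoxd10, Hoxd11 and Hoxd12 are measured with wide counting error.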
